A study of Arabidopsis thaliana with 12 samples.

Results

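In Arabidopsis thaliana leaves exposed to gaseous formaldehyde, 93 of 22746 probe sets (0.409%) had higher log2 values on every exposed array than on every control array, at both doses. A probe set is a group of probes on the array that reads 1 transcript or, in some cases, those of several genes. The members were chosen from the measured values themselves. The lowest of the 6 exposed arrays had to lie at least 0.5 above the highest of the 6 control arrays. All 6 exposed arrays had to lie above 4, a level above the array's background, and the means of the 2 control groups had to differ by less than 0.5. The gap between the lowest exposed and the highest control array is called the margin below. Differences between exposed and control plants are therefore given as a description, with no test, because they chose the members. The mirrored rule, with exposed arrays below control arrays, was met by 204 probe sets (0.897%).

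The plants were wild-type Columbia, 7 weeks old, and rosette leaves were sampled after a treatment of 150 min that followed 72 h in constant light. High exposure was 14 to 16 ppm formaldehyde and low exposure was 1 to 2 ppm. The controls were plants in the same chamber in clean air (below 0.04 ppm) and plants that stayed outside it (below 0.08 ppm). Each of the 4 groups held 3 plants with 1 ATH1 array each, and none carried a transgene or mutation according to the labels. Since 3 plants shared each treatment, the chamber run and the condition cannot be told apart. The p-values set group differences against the spread among plants treated together, and they hold no spread between runs.

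Formaldehyde is a small reactive aldehyde that cross-links proteins and nucleic acids, and plant leaves take it up and oxidise it to formate, which enters one-carbon metabolism. Proteins damaged in this way are bound by chaperones such as the small heat shock proteins, which hold unfolding proteins until other chaperones refold them. Ribosome biogenesis, with which 6 of the 35 named members were grouped by role, starts in the nucleolus. There the ribosomal RNA precursor is transcribed, cleaved, trimmed and modified while ribosomal proteins made in the cytosol are imported and joined to it.

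The arrays differed in several respects besides the groups. The median log2 value per array lay between 5.71 and 5.90. The 3′ minus 5′ signal of the array's control transcripts, which rises as RNA degrades, averaged 2.77 ± 0.25 at high exposure, 2.67 ± 0.10 at low exposure, 2.42 ± 0.07 in clean air and 2.30 ± 0.04 outside (log2, SD, n = 3 plants each). Per array it was 2.57 to 3.05 at high and 2.57 to 2.76 at low exposure. It was 2.38 to 2.50 in clean air and 2.26 to 2.33 outside. Every exposed array thus lay above every control array, the same split that the rule used. For all 93 members RNA quality and exposure therefore cannot be told apart, and the part of RNA quality was not tested. The bioC spike-in averaged 7.23 ± 0.23 at high exposure, 8.78 ± 0.13 at low exposure, 6.53 ± 0.26 in clean air and 6.99 ± 0.21 outside. The rescaling on spike-in controls described below left bioC out and used the mean of bioB, bioD and cre. That mean was 10.18 ± 0.16 at high exposure, 10.18 ± 0.11 at low exposure, 10.01 ± 0.20 in clean air and 10.27 ± 0.15 outside. Cell type markers were thinly covered, with 1 named probe set each for mesophyll, guard cells, trichomes, phloem and roots and none for epidermis. RCA, the activator of the carbon-fixing enzyme of mesophyll, was among the brightest transcripts, with a log2 level of 14.75 ± 0.08 at high exposure, 15.02 ± 0.04 at low exposure, 15.01 ± 0.11 in clean air and 15.12 ± 0.03 outside. The root hair expansin EXPA7 lay at 2.11 in all 4 groups, at the array's lowest value. In whole leaves, fewer cells of a type and less RNA per cell cannot be told apart.

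The members spanned weak to strong transcripts. Their group means ran from 4.42 to 13.80 at high exposure, with a median of 8.48, and from 4.33 to 13.77 at low exposure, with a median of 7.90. In clean air they ran from 2.36 to 12.37, with a median of 6.48. All 6 control arrays lay at or below 4 in 13 members, and in 73 members no control array did. Such control values are not above background, and a fold against them is given as a lower bound computed from the level 4. Per plant, the median of the 93 members was 8.73, 8.42 and 8.22 at high exposure, 8.09, 8.01 and 7.88 at low exposure, 6.86, 6.71 and 6.25 in clean air and 6.29, 6.19 and 6.63 outside.

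The differences from clean air that the rule selected had a log2 median of 1.82 at high exposure, with a range of 0.85 to 8.63. At low exposure the median was 1.39 and the range 0.64 to 3.92. On the measured log2 means, high exposure lay 1 or more above clean air in 88 members and 2 or more in 43. Low exposure lay 1 or more above clean air in 77 members and 2 or more in 22. The low-dose difference from clean air had a median of 82.5% of the high-dose difference on the log2 scale, and this share ran from 30.3% to 167%. In 13 members all 3 clean-air arrays lay at or below 4. The measured differences, counts and shares of those members are not exact, the highest difference of 8.63 among them. The margin had a median of 0.75 and a highest value of 2.64, and it was 1 or more in 29 members and 2 or more in 5.

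Among probe sets with a named gene, those just inside the margin of 0.5 were AT3G06680 (0.503), AT5G03610 (0.502) and AT1G22270 (0.50). Those just outside it, with every other condition met, were AT1G50920 (0.496), AT5G61880 (0.494) and AT1G15420 (0.492). The margin alone was met by 184 probe sets. Of these, 8 failed the level condition, and a further 83 failed only because the control groups differed by 0.5 or more, with clean air above outside in 74 and below it in 9. The array that set the highest control value was clean air replicate 1 in 51 members. Without that array 158 probe sets met the rule, 83 of them members. The lowest exposed array was a low-exposure array in 62 members and high replicate 1 in none.

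Of the 93 members, 35 had a single gene in the annotation table, 1 had several genes and 57 had none listed. Over all 22746 probe sets these numbers were 13513, 503 and 8730. The roles below thus leave out most members. All 35 members with a single gene matched a locus in RefSeq's annotation. A role could be given to 26 of them, from symbol and locus, and none was given to 9. Of the 35 named members, 13 were assigned to ribosomes, ribosomal RNA maturation or related RNA processing, or chaperones. The share of these pooled roles among all named probe sets was not counted, so the 13 are not read as an excess.

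**Figure D1:**
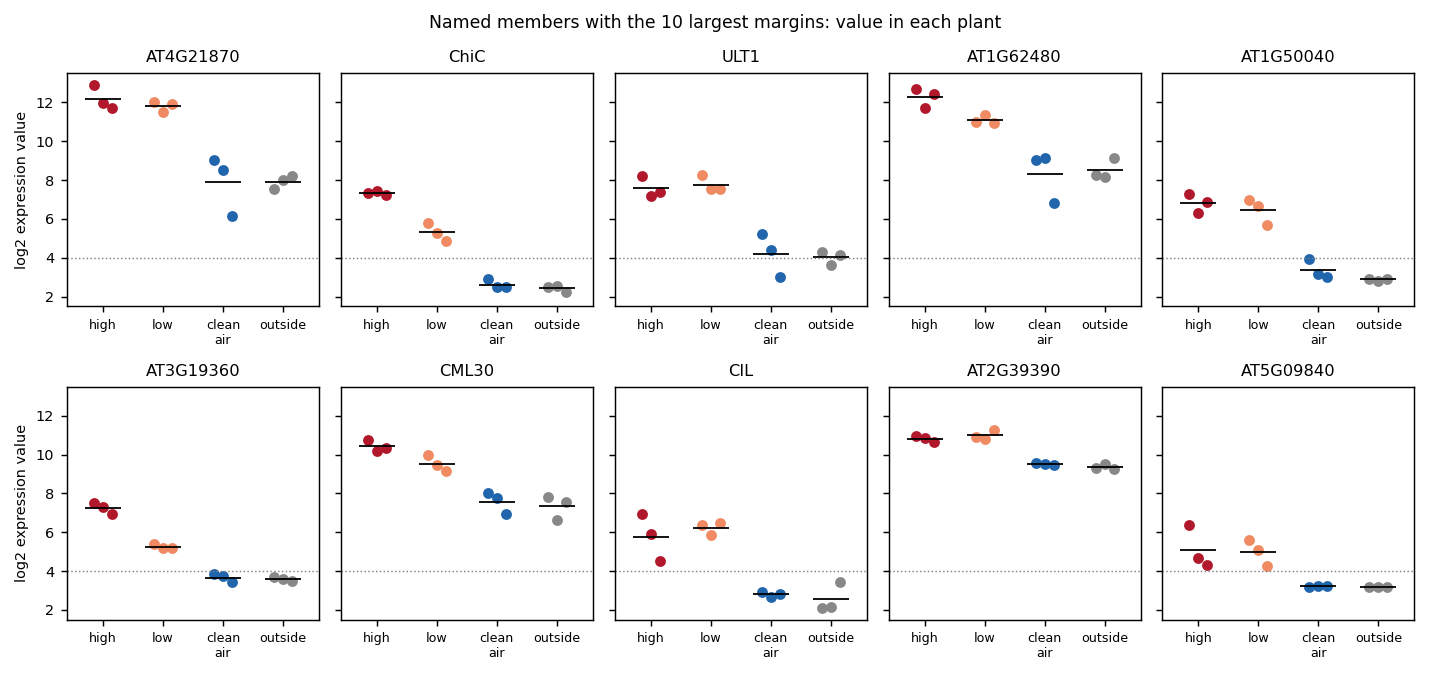
Log2 level (y axis) in each plant of the 10 named members with the widest margins, with high exposure, low exposure, clean air and outside from left to right. Points are plants, horizontal bars are group means and the dotted line is the level 4; all 6 exposed points lie above all 6 control points in each panel, as the rule required.

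Among the proteins that protect or fold other proteins, AT4G21870 had the widest margin of all named members, 2.44. It encodes a protein of the small heat shock family. Its log2 level was 12.89, 11.96 and 11.72 at high exposure, 12.04, 11.49 and 11.93 at low exposure, 9.06, 8.50 and 6.16 in clean air and 7.52, 8.00 and 8.19 outside. The 2 doses overlapped, and clean air spread over almost 3 log2 units. Over clean air this was 19.5-fold at high exposure and 15.1-fold at low exposure, and the doses differed by 0.37 ± 0.60 (log2, SE, limma adjusted p = 0.635).

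The second of these genes, AT5G06110, encodes a protein with DnaJ and Myb-like domains of the ZRF1 type, a co-chaperone that in animals also acts on chromatin. It had log2 levels of 9.78, 9.39 and 8.97 at high exposure, 8.32, 8.56 and 8.39 at low exposure, 7.30, 7.22 and 7.14 in clean air and 7.30, 7.03 and 7.30 outside. Here the doses were apart on all plants, and high exposure was higher than low by 0.96 ± 0.19 (log2, SE, limma adjusted p = 0.0017).

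No named member was on the list of heat shock proteins, co-chaperones and factors. Of its 34 loci 10 had a named probe set, of which 8 were tested, and members without a listed gene could not be checked against it. At high exposure 8 of the 8 tested were called higher than in clean air and none lower, with a median log2 difference of 6.97. At low exposure none was called higher and 1 lower, with a median of −0.07. Over all 13874 probe sets tested, 22.8% were called higher and 30.1% lower at high exposure, and 11.8% higher and 11.4% lower at low exposure (limma, adjusted p under 0.05), with medians of −0.10 and −0.01.

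Ribosomal proteins formed the next group, with 3 members of the cytosolic ribosome and 2 of organelle ribosomes. AT2G39390, a large-subunit protein of the L35 family, had log2 levels of 10.98, 10.83 and 10.62 at high exposure, 10.89, 10.79 and 11.28 at low exposure, 9.58, 9.52 and 9.48 in clean air and 9.29, 9.51 and 9.25 outside. The doses overlapped (difference −0.18 ± 0.15, log2, SE, limma adjusted p = 0.361), and the folds over clean air were 2.43 at high exposure and 2.75 at low exposure. AT5G15520, a small-subunit protein of the S19 family, had log2 levels of 8.71, 8.27 and 7.95 at high exposure, 8.27, 8.12 and 8.67 at low exposure, 7.24, 6.88 and 7.27 in clean air and 6.55, 6.85 and 7.13 outside. Its doses also overlapped.

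AT3G06680, a large-subunit protein of the L29 family, was the only named member called higher at low exposure. Its log2 levels were 11.21, 11.02 and 10.52 at high exposure, 11.31, 11.56 and 11.76 at low exposure, 10.02, 9.73 and 9.68 in clean air and 9.24, 9.68 and 9.46 outside. Every low-exposure plant lay above every high-exposure plant, by a mean of −0.63 ± 0.20 for high minus low (log2, SE, limma adjusted p = 0.0212). The call was lost without low replicate 2, low replicate 3 or high replicate 3 (limma adjusted p = 0.0562 to 0.0889).

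The plastid gene rps4, for a small-subunit protein of the chloroplast ribosome, was the only member with a plastid symbol. Its log2 levels were 13.68, 13.55 and 13.60 at high exposure, 12.99, 13.52 and 13.37 at low exposure, 12.44, 12.22 and 12.00 in clean air and 12.08, 11.51 and 11.76 outside. All high-exposure plants lay above the low-exposure plants, but the difference of 0.31 ± 0.18 was not called (log2, SE, limma adjusted p = 0.161). AT3G49080, a nuclear gene for a mitochondrial small-subunit protein of the S9 family, had log2 levels of 8.75, 8.49 and 8.31 at high exposure, 8.33, 8.34 and 8.39 at low exposure, 7.78, 7.34 and 7.25 in clean air and 6.92, 6.71 and 7.29 outside. Its doses overlapped.

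The cytosolic ribosomal protein genes as a list, gathered after the members were known, differed between the doses. It held 124 named probe sets, of which 114 were tested and 3 are the members above, whose differences from clean air the rule had selected. At low exposure 109 of the 114 were called higher than in clean air and none lower, with a median log2 difference of 0.80. At high exposure 46 were called higher and 1 lower, with a median of 0.33. The shares of all probe sets tested were 11.8% higher and 11.4% lower at low exposure, and 22.8% and 30.1% at high exposure. Between the doses 61 were called lower at high exposure and 3 higher, against 28.7% and 21.1% of all probe sets tested, with a median of −0.48. The margin was met by 6, of which 2 failed on the control difference. These counts depended on single arrays. Without clean air replicate 2 the number called higher was 67 at low exposure and 26 at high exposure, and without high replicate 1 it was 29 at high exposure. The number lower at high than at low exposure was 33 without high replicate 3 and 37 without low replicate 3. With the arrays rescaled on the spike-in controls, an alternative chosen for this list after seeing the data, 39 were called higher at low exposure, 17 higher at high exposure and 32 lower at high than at low exposure.

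**Figure D2:**
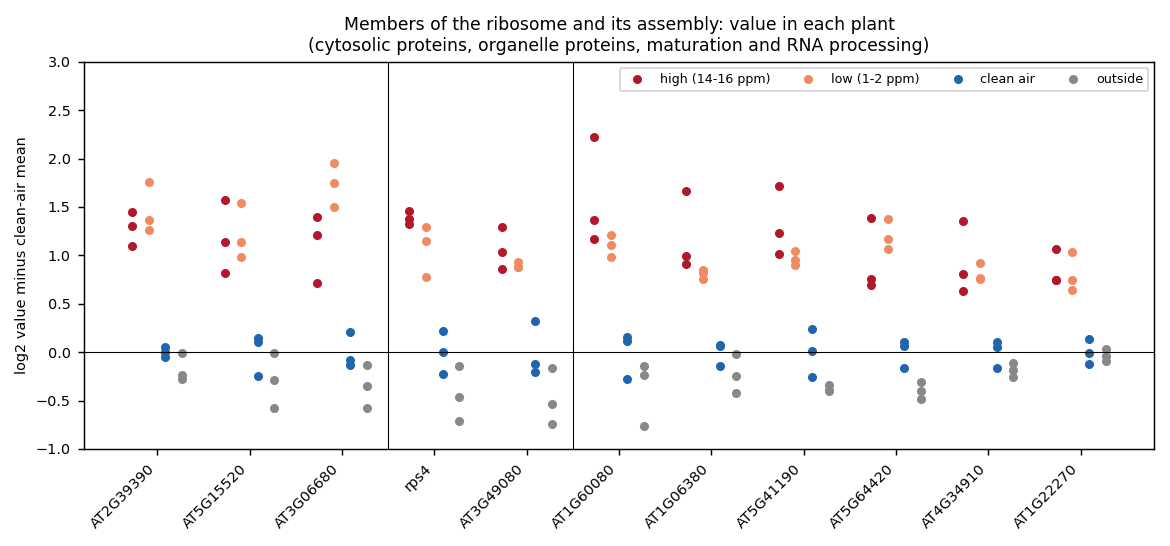
Log2 level minus the clean-air mean (y axis) in each plant of the 11 named members with roles in ribosomes and RNA processing, with high exposure, low exposure, clean air and outside from left to right for each gene. Points are plants; every exposed point lies above every control point of its gene, as the rule required, and the doses are apart in AT3G06680, rps4 and AT1G06380.

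The factors that build ribosomes or process RNA gave 6 members. AT5G41190 is named NOB1 among RefSeq's synonyms, and NOB1 in yeast is the nuclease that makes the final cut of the small-subunit ribosomal RNA. It had log2 levels of 9.74, 9.26 and 9.04 at high exposure, 9.07, 8.98 and 8.93 at low exposure, 8.27, 8.04 and 7.77 in clean air and 7.62, 7.64 and 7.69 outside. The doses overlapped, and their difference was 0.36 ± 0.18 (log2, SE, limma adjusted p = 0.129, and 0.0497 without high replicate 3).

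AT1G06380, of the L1p/L10e family of ribosomal and ribosome-assembly proteins, had log2 levels of 8.37, 7.70 and 7.62 at high exposure, 7.56, 7.53 and 7.46 at low exposure, 6.57, 6.77 and 6.78 in clean air and 6.29, 6.46 and 6.69 outside. All its high-exposure plants lay above the low-exposure plants, by a mean of 0.38 ± 0.20 that was not called (log2, SE, limma adjusted p = 0.132). AT5G64420, of the DNA polymerase V family whose yeast relative acts in the nucleolus, had log2 levels of 8.16, 7.52 and 7.46 at high exposure, 8.14, 7.84 and 7.94 at low exposure, 6.87, 6.83 and 6.61 in clean air and 6.28, 6.46 and 6.37 outside. In AT5G64420 the difference between doses of −0.26 ± 0.19 was not called (log2, SE, limma adjusted p = 0.281), but without high replicate 1 it was −0.48 (limma adjusted p = 0.0259).

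AT4G34910, a DEAD-box RNA helicase, had log2 levels of 6.47, 5.93 and 5.75 at high exposure, 5.88, 6.04 and 5.88 at low exposure, 4.96, 5.18 and 5.22 in clean air and 4.86, 5.0 and 4.94 outside. AT1G60080, of the RNase PH family that forms the core of the RNA-trimming exosome, had log2 levels of 8.52, 7.66 and 7.47 at high exposure, 7.41, 7.29 and 7.51 at low exposure, 6.42, 6.02 and 6.46 in clean air and 6.06, 5.54 and 6.16 outside. In both genes the doses overlapped and high replicate 1 was the highest exposed plant.

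AT1G22270, related to TRM112, which in yeast activates methyltransferases of ribosomal and transfer RNA and of a translation factor, lay nearest to the margin of all members. Its log2 levels were 9.35, 9.02 and 9.03 at high exposure, 9.31, 8.92 and 9.03 at low exposure, 8.16, 8.27 and 8.42 in clean air and 8.19, 8.25 and 8.31 outside. None of these 6 members was called between the doses. Their differences from clean air ran from 0.85 to 1.58 at high exposure and from 0.81 to 1.20 at low exposure (log2). In all 6, high replicate 1 was the highest of the high-exposure plants by 0.3 or more, and that array also had the highest 3′ minus 5′ control signal, 3.05. It had the highest median over all 93 members too, 8.73, so this is not read as a trait of the 6 genes. How many other members differed by as much was not counted. The part of RNA quality in these values was not tested.

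The list of ribosome biogenesis and nucleolar factors held none of the members, although most of its tested genes were called higher at each dose. It had 13 named probe sets, of which 12 were tested. Against clean air 10 were called higher at high exposure (median log2 difference 1.11) and 10 at low exposure (median 1.00), and none was lower at either dose. The shares of all probe sets tested were 22.8% higher and 30.1% lower at high exposure, and 11.8% and 11.4% at low exposure. In clean air 6 of the 12 were called higher than outside (median 0.91), against 1.7% of all probe sets tested. The margin was met by 4 of its probe sets, and all 4 failed on the difference between the control groups. Without clean air replicate 2 or 3, or without low replicate 2 or 3, 6 of the 12 were called at low exposure, as with spike-in scaling. Between the doses 3 were called higher at high exposure and 2 lower, against 21.1% and 28.7% of all probe sets tested. The 2 became 1 without low replicate 2, low replicate 3 or high replicate 3, and with spike-in scaling.

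From that list, YAO, a nucleolar WD-repeat protein of ribosomal RNA processing, averaged 8.18 ± 0.48 at high exposure, 7.27 ± 0.08 at low exposure, 5.98 ± 0.51 in clean air and 5.10 ± 0.20 outside (log2, SD, n = 3). AT2G40360, related to the large-subunit assembly factor BOP1, averaged 9.79 ± 0.38 at high exposure, 9.79 ± 0.21 at low exposure, 8.75 ± 0.27 in clean air and 7.75 ± 0.30 outside (log2, SD, n = 3). In both genes the clean-air mean exceeded the outside mean by more than the 0.5 that the rule allowed.

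**Figure D3:**
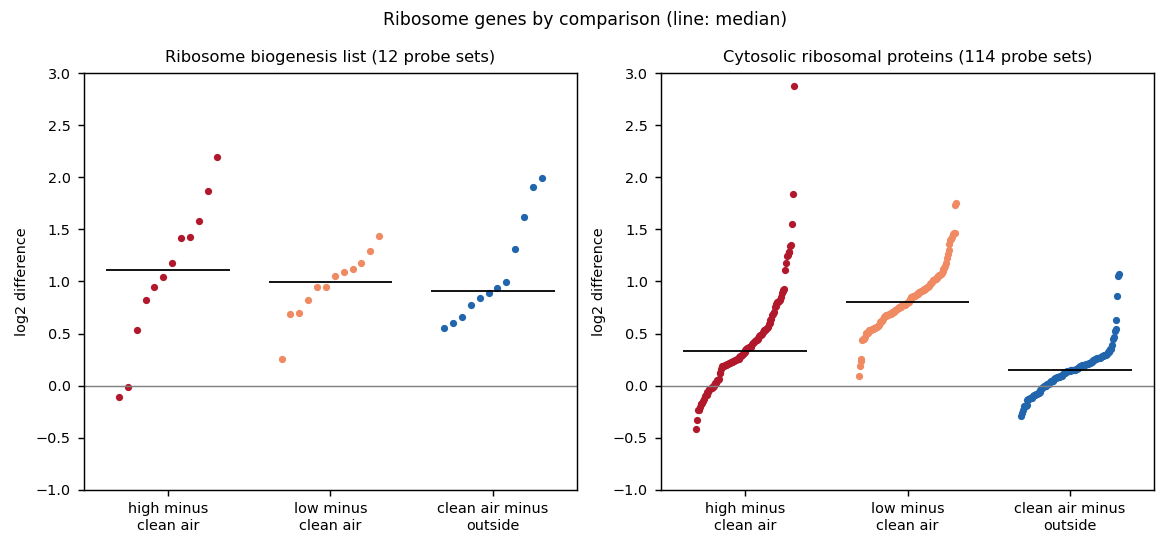
Log2 differences (y axis) of the 12 tested probe sets of the ribosome biogenesis list (left) and the 114 of the cytosolic ribosomal proteins (right) in 3 comparisons (x axis), each sorted by size, with bars at the medians. Against clean air the ribosomal proteins have medians of 0.33 at high exposure and 0.80 at low exposure, and the biogenesis list has medians of 1.11 at high exposure and 1.00 at low exposure.

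The role of chromatin and transcription, assigned from symbol and locus only, was given to 5 named members. ULT1, a SAND-domain protein of the trithorax type that limits floral meristem size, had log2 levels of 8.21, 7.17 and 7.39 at high exposure, 8.24, 7.52 and 7.52 at low exposure, 5.22, 4.43 and 2.99 in clean air and 4.31, 3.65 and 4.14 outside. Its clean air replicate 3 and outside replicate 2 lay below 4, not above background. The measured means gave 10.4-fold above clean air at high exposure and 11.7-fold at low exposure, which are not exact for that reason, and the doses overlapped (difference −0.17 ± 0.49, log2, SE, limma adjusted p = 0.801). CIL, a CCT-domain homologue of CIA2, which acts on chloroplast protein import, had log2 levels of 6.93, 5.91 and 4.49 at high exposure, 6.37, 5.88 and 6.46 at low exposure, 2.93, 2.66 and 2.83 in clean air and 2.11, 2.14 and 3.45 outside. Its control plants were all below 4, its high-exposure plants were spread over more than 2 log2 units, and the difference between doses was −0.46 ± 0.53 (log2, SE, limma adjusted p = 0.506).

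AT3G19360, a zinc finger protein of the CCCH class, had log2 levels of 7.49, 7.30 and 6.92 at high exposure, 5.38, 5.21 and 5.18 at low exposure, 3.84, 3.72 and 3.45 in clean air and 3.70, 3.61 and 3.51 outside. The 4 groups fell in 3 separate steps, with both control groups below 4. It was at least 9.41-fold above clean air at high exposure and at least 2.39-fold at low exposure, and 3.93-fold higher at high than at low exposure (log2 difference 1.98 ± 0.19, SE, limma adjusted p = 1.74e-05).

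AT5G67630, a RuvB-like ATPase of chromatin remodelling and of assembly of the particles that modify ribosomal RNA, had log2 levels of 7.98, 8.10 and 7.95 at high exposure, 7.25, 6.75 and 6.74 at low exposure, 5.52, 5.85 and 5.96 in clean air and 5.78, 6.01 and 5.89 outside. It was also stepped, and higher at high than at low exposure by 1.09 ± 0.18 (log2, SE, limma adjusted p = 0.000519). The Myb-like gene AT5G05790 was not called between the doses (difference 0.26 ± 0.30, log2, SE, limma adjusted p = 0.504). AT3G12710, of the DNA glycosylase superfamily that removes damaged bases from DNA, was 1.97 above clean air at high exposure and 1.77 at low exposure on the log2 scale, and was not called between the doses.

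The cell wall and defence genes were both called higher at the higher dose. ChiC, a class V chitinase, had log2 levels of 7.34, 7.43 and 7.21 at high exposure, 5.82, 5.28 and 4.86 at low exposure, 2.90, 2.50 and 2.48 in clean air and 2.51, 2.53 and 2.24 outside. Both control groups were below 4 and the doses were well apart. ChiC was at least 10.0-fold above clean air at high exposure and at least 2.49-fold at low exposure, and high exceeded low by 2.01 ± 0.25 (log2, SE, limma adjusted p = 8.59e-05).

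EXLA2, an expansin-like wall protein, had log2 levels of 6.87, 6.36 and 6.84 at high exposure, 5.24, 5.75 and 5.04 at low exposure, 4.08, 3.25 and 3.19 in clean air and 3.50, 4.08 and 3.19 outside. Its doses did not overlap, and high exceeded low by 1.35 ± 0.32 (log2, SE, limma adjusted p = 0.00458). The list of xyloglucan enzymes, expansins and cellulose synthesis held no member. Of its 9 tested probe sets, 5 were called higher and 1 lower than in clean air at high exposure, and 3 higher and none lower at low exposure. Of all probe sets tested, 22.8% were called higher and 30.1% lower at high exposure, and 11.8% higher and 11.4% lower at low exposure.

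There were 2 calcium genes. AT1G62480, annotated as related to vacuolar calcium-binding proteins, had log2 levels of 12.68, 11.72 and 12.44 at high exposure, 11.01, 11.32 and 10.92 at low exposure, 9.06, 9.12 and 6.82 in clean air and 8.26, 8.16 and 9.14 outside. It was 15.4-fold above clean air at high exposure and 6.73-fold at low exposure. The doses did not overlap, but their difference of 1.19 ± 0.53 was not called (log2, SE, limma adjusted p = 0.0841, and 0.0069 without clean air replicate 3).

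CML30, a calmodulin-like sensor of calcium, had log2 levels of 10.77, 10.17 and 10.34 at high exposure, 9.95, 9.48 and 9.15 at low exposure, 8.00, 7.76 and 6.95 in clean air and 7.82, 6.64 and 7.58 outside. The folds over clean air were 7.22 at high exposure and 3.87 at low exposure. Again the doses did not overlap and the difference of 0.90 ± 0.35 missed the threshold (log2, SE, limma adjusted p = 0.0529), which it passed without clean air replicate 3, outside replicate 1, outside replicate 2 or low replicate 1 (limma adjusted p = 0.0267 to 0.0488).

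The membrane and lipid genes were AT5G18970 and AT1G29520, both of a family first described from wheat plasma membranes, and the GDSL lipase gene AT5G03610. Their differences from clean air ran from 1.13 to 1.54 at high exposure and from 1.20 to 1.70 at low exposure (log2), and none was called between the doses. For 9 named members no role was assigned, among them AT1G50040 and AT5G09840. AT1G50040 had log2 levels of 7.27, 6.29 and 6.86 at high exposure, 7.00, 6.65 and 5.69 at low exposure, 3.94, 3.18 and 3.02 in clean air and 2.92, 2.82 and 2.92 outside, at least 7.00-fold above clean air at high exposure and at least 5.45-fold at low exposure. AT5G09840 had log2 levels of 6.36, 4.67 and 4.30 at high exposure and 5.59, 5.06 and 4.28 at low exposure, against 3.20 to 3.26 on all control arrays. Both genes overlapped between the doses.

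Also without an assigned role, AT2G20940 had log2 levels of 8.91, 8.34 and 8.21 at high exposure, 7.56, 7.46 and 7.24 at low exposure, 6.49, 6.07 and 6.20 in clean air and 5.53, 5.94 and 6.0 outside. The doses were apart, by 1.07 ± 0.21 (log2, SE, limma adjusted p = 0.00184). AT5G05180 had log2 levels of 7.08, 6.31 and 6.64 at high exposure, 6.53, 5.07 and 5.38 at low exposure, 4.11, 4.42 and 3.50 in clean air and 3.94, 3.96 and 3.56 outside. Its doses overlapped in 1 plant, and the difference of 1.02 ± 0.37 passed narrowly (log2, SE, limma adjusted p = 0.0419). That call was lost without high replicate 1 or 3, low replicate 2 or 3, clean air replicate 1 or outside replicate 1 (limma adjusted p = 0.0522 to 0.163). The other 5 were AT2G41650, AT1G24530, AT2G18910, AT1G05210 and AT3G09890, of which none was called between the doses.

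The rule set no condition on the difference between high and low exposure, so this comparison was tested for each member. It did use the same 6 arrays and required both doses to lie above the controls, so a probe set lowered at either dose could not be a member. The shares of all probe sets tested are printed beside the members' counts for that reason as background only, and no difference between them is read as a result. High exposure was called higher in 30 of the 93 members (32.3%), against 21.1% of all 13874 probe sets tested. Low exposure was called higher in 2 members (2.15%), against 28.7% of all tested, and 61 were not called. Because the rule required all exposed arrays to lie above 4, every member passed the filter for testing. The median high minus low difference was 0.33 in the members and −0.11 over all tested, and it was above 0 in 77 members (82.8%), against 43.8% of all tested. High-exposure plants lay above low-exposure plants without overlap in 34 members, against 25.2% of all tested, and below them in 2, against 33.7%.

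**Figure D4:**
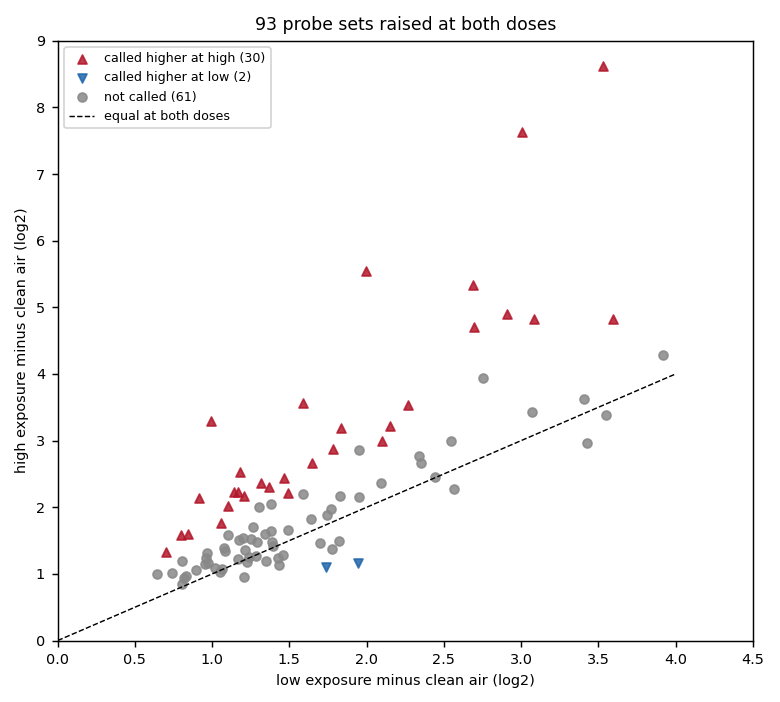
Log2 difference from clean air of each of the 93 members at high exposure (y axis) and at low exposure (x axis), with the dashed line at equal differences and colours for the calls between the doses. Of the points, 77 lie above the line and 16 below it, and both axes share the clean-air plants. For 13 members all clean-air values lay at or below 4, so their differences are not exact.

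Among the 30 members called higher at high exposure, the difference between doses ran from 0.62 to 5.10 with a median of 1.09 (log2). The difference was 1 or more in 21 members and 2 or more in 6. Among the 61 not called it ran from −0.46 to 1.19, and the 95% interval of the difference lay within 1 log2 unit of 0 in 42 of them. Over the 61 the lowest lower end of an interval was −1.63 (CIL) and the highest upper end 2.37 (AT1G62480). Array high replicate 1 weighed on these counts. Without it 19 members were called higher at high exposure, 4 were called higher at low exposure and the median difference was 0.12. The median was 0.51 without high replicate 3, and 1 member was called higher at low exposure without that array, low replicate 2 or low replicate 3.

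Of the other marker transcripts, which are no members, TRY and SWEET11 also differed between the doses. TRY, a regulator of trichome spacing, averaged 3.03 ± 0.28 at high exposure and 5.48 ± 0.98 at low exposure, and SWEET11, a sucrose exporter of phloem parenchyma, averaged 12.07 ± 0.45 at high exposure and 13.04 ± 0.15 at low exposure (log2, SD, n = 3). Both were called lower at high exposure, as was RCA. In clean air TRY averaged 5.33 ± 0.94 and SWEET11 12.86 ± 0.16, and neither was called between low exposure and clean air. FMA, a guard cell regulator, averaged 5.35 ± 0.55 at high exposure and 5.23 ± 0.01 at low exposure and was not called. The part of cell type makeup in the members' differences was not tested.

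**Figure D5:**
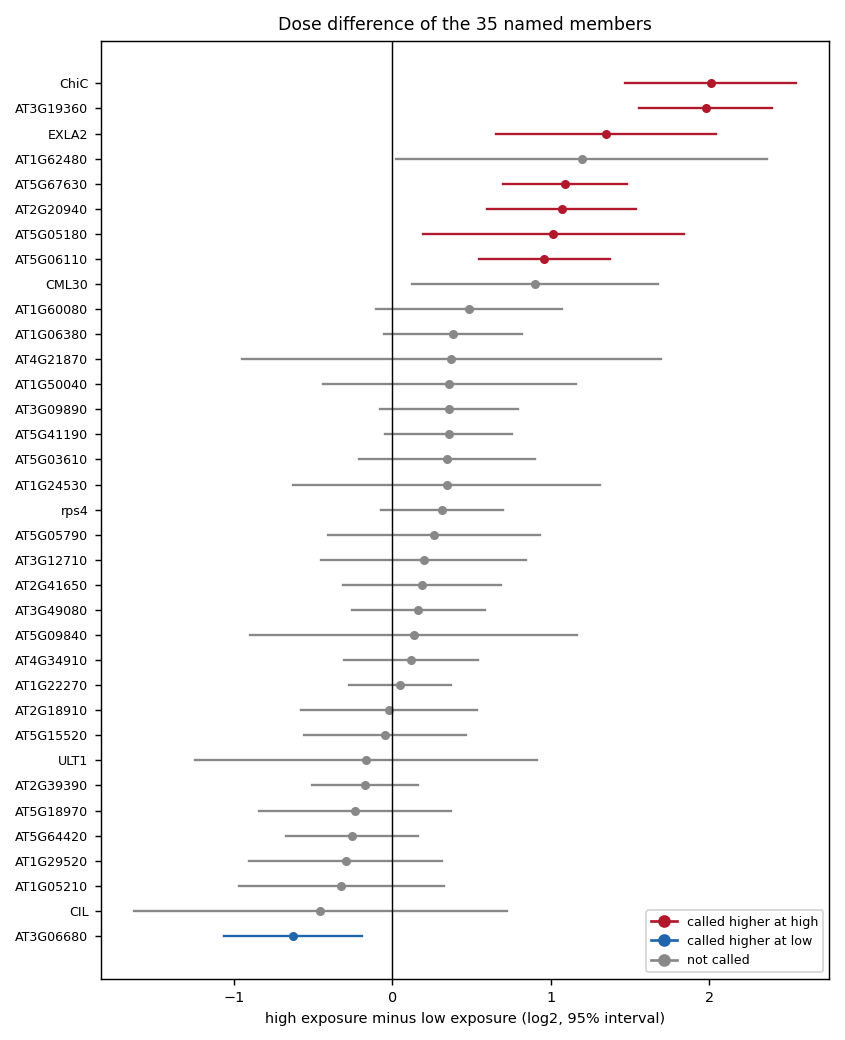
High minus low difference (x axis, log2) of the 35 named members, ordered by size, with 95% intervals from limma that are not adjusted for the number of probe sets. The 7 members called higher at high exposure are AT3G19360, ChiC, EXLA2, AT5G67630, AT2G20940, AT5G05180 and AT5G06110, and AT3G06680 is the 1 called higher at low exposure.

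The members with the widest difference between doses had no listed gene and are given by probe set, singled out after their values were seen. Probe set 266693_at had log2 levels of 11.72, 11.32 and 11.17 at high exposure, 8.09, 5.54 and 5.29 at low exposure, 3.15, 2.60 and 2.59 in clean air and 2.59, 2.59 and 3.08 outside. High exceeded low by 5.10 ± 0.58 (log2, SE, limma adjusted p = 5.15e-05), and high was at least 169-fold and low at least 4.94-fold above clean air. Probe set 266010_at had log2 levels of 11.21, 11.09 and 10.22 at high exposure, 5.95, 5.77 and 6.92 at low exposure, 3.41, 3.43 and 2.78 in clean air and 3.45, 3.36 and 3.48 outside, with a difference between doses of 4.63 ± 0.34 (log2, SE, limma adjusted p = 2e-06). In both, the 4 groups lay in 3 separate steps.

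The next 3 by difference between doses were brighter in the controls. Probe set 261934_at had log2 levels of 11.63, 12.02 and 12.04 at high exposure, 7.96, 7.87 and 9.23 at low exposure, 7.32, 6.55 and 5.2 in clean air and 6.96, 5.16 and 7.32 outside, and high exceeded low by 3.55 ± 0.62 (log2, SE, limma adjusted p = 0.000827). Probe set 251248_at had log2 levels of 11.61, 11.48 and 11.27 at high exposure, 9.45, 8.54 and 8.42 at low exposure, 7.17, 6.76 and 4.42 in clean air and 6.35, 6.09 and 6.49 outside, and high exceeded low by 2.65 ± 0.57 (log2, SE, limma adjusted p = 0.00274). Probe set 265662_at had log2 levels of 12.01, 11.75 and 11.85 at high exposure, 9.69, 9.65 and 9.39 at low exposure, 8.55, 8.61 and 8.58 in clean air and 8.37, 8.43 and 8.55 outside, and high exceeded low by 2.29 ± 0.12 (log2, SE, limma adjusted p = 1.69e-07). The plants of a group lay closest together in 265662_at, and single clean-air or outside plants lay far below the others in the first 2.

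The widest margin of all members, 2.64, belonged to probe set 264157_at, with log2 levels of 8.36, 6.63 and 7.75 at high exposure, 6.67, 5.47 and 6.89 at low exposure, 2.71, 2.71 and 2.83 in clean air and 2.71, 2.71 and 2.30 outside. Its doses overlapped, with high replicate 2 below low replicates 1 and 3, and high exceeded low by 1.24 ± 0.44 (log2, SE, limma adjusted p = 0.0348). The second member called higher at low exposure was probe set 245925_at, with log2 levels of 10.08, 9.81 and 9.89 at high exposure, 10.81, 10.47 and 10.85 at low exposure, 9.09, 8.97 and 8.23 in clean air and 8.94, 8.54 and 8.63 outside. All low-exposure plants lay above all high-exposure plants (high minus low −0.78 ± 0.22, log2, SE, limma adjusted p = 0.0118).

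None of the named members was on the lists of formaldehyde metabolism, which the annotation covered in part. The list of formaldehyde and folate one-carbon metabolism has 34 loci, of which 7 had a named probe set, and members without a listed gene could not be checked against it. Of these 7, all tested, none was called higher and 5 lower than in clean air at high exposure, and 1 higher and 2 lower at low exposure. Of 7 tested aldehyde dehydrogenases of the 12 on their list, which oxidise aldehydes to acids, none was called higher and 4 lower at each dose. Over all probe sets tested, 22.8% were called higher and 30.1% lower at high exposure, and 11.8% higher and 11.4% lower at low exposure. Other lists held no named member either, among them the unfolded protein response, detoxification, photosynthesis, jasmonate with salicylate and ethylene, and abscisic acid lists. In that order they had 9, 9, 6, 5 and 4 named probe sets for 24, 34, 23, 25 and 23 loci. With 0.409% of all probe sets meeting the rule, so few could hardly hold a member, and nothing is concluded about these pathways.

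How firmly a transcript belonged to the members varied. The rule was met in all 12 fits of the rule that left out 1 array by 57 of the 93. When the arrays were rescaled on the spike-in controls other than bioC instead, 42 probe sets met the rule, 33 of them members. Under quantile normalization 109 did, 89 of them members. With the rescaling the median difference of all probe sets tested from clean air was −0.27 at high exposure and −0.18 at low exposure, against −0.10 and −0.01 as deposited (log2). With all 12 omissions and both scalings together 20 members remained, 9 of them named. Of the genes described above, AT4G21870, ChiC, ULT1, AT1G62480, AT3G19360, CML30, CIL, AT2G39390, AT5G09840, AT5G06110, EXLA2, AT3G12710, AT5G67630 and AT5G05180 met the rule with spike-in scaling. Of the ribosome-related members AT2G39390 was the only one that did. Among the named members AT1G50040, rps4 and AT5G03610 met the rule under neither scaling. AT1G50040 met it in 8 of the 12 omissions, and its clean-air mean lay 0.489 above its outside mean, near the limit of 0.5.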

How the data were processed

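The authors deposited 1 table of log2 values, a value for each probe set on each of 12 ATH1 arrays, which per the submitters' processing notes came from GCRMA, a method of background correction and normalization. Which version and options they chose, and any genome build, is not stated for these arrays. All sample columns were mapped by title, and 0 were left unused. The 64 control probe sets were left out. Members were found by the rule given at the start, and the members and gene lists were chosen with earlier results of these data known. Testing was limited to the 13874 of 22746 probe sets with 3 or more arrays above 4.

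Group differences came from limma 3.58.1 (lmFit, eBayes with trend; R 4.3.3), in a single model of the 4 groups and 12 arrays, with Benjamini-Hochberg adjustment over all probe sets tested and calls at an adjusted p under 0.05. The model was tested on simulated data with independent normal noise. That simulation held no chamber run, RNA quality or floor effect, so it says nothing about those limits. Quoted SEs and 95% intervals are limma's, and precision is limited by having 3 arrays in a group. Figures used matplotlib 3.10.9 with Python 3.11.15.

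Genes come from the array's annotation table and RefSeq (TAIR10.1), and only probe sets of 1 gene were named. By rule these were the 10 with the widest margin, up to 10 called either way between doses, the 3 nearest each side of the margin, any list member and up to 2 genes of a list as context, and the rest by role. Roles were written from symbol and locus. Alternatives were other margins, levels, control conditions, scalings, filters, array weights, a replicate block and leaving out each array.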

Additional observations from a re-analysis of the deposited data

How the results depend on the processing

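The rule was met by 93 probe sets. It was met by 195 with a margin of 0.3, by 29 with a margin of 1, by 61 with the control means within 0.25, by 176 with no limit on them, by 219 with the outside arrays as the only controls and by 42 with spike-in scaling. Leaving out 1 array gave 84 to 158. With spike-in scaling, chosen for the lists after seeing the data like their other alternatives, the ribosome biogenesis list had 6 called higher at low exposure and 1 lower at high than at low exposure, and the cytosolic ribosomal proteins had 17 higher at high exposure, 39 higher at low exposure and 32 lower at high than at low. Leaving out 1 array gave 9 to 10, 6 to 11 and 1 to 3 calls in the biogenesis list (high against clean air, low against clean air, lower at high than at low), and 26 to 55, 67 to 109 and 33 to 68 in the ribosomal proteins.

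Members called higher at high than at low exposure numbered 30, and 19 to 31 without 1 array. Those called higher at low numbered 2, with 5 under array quality weights and 1 to 4 without 1 array. The median difference was 0.33, and 0.12 to 0.51 without 1 array. With the replicate number as a block the counts were 29 and 2 and the median was 0.33. The correlation of same-numbered arrays ran from −0.33 to 0.33 and exceeded 0.1 in 8 of 18 pairs, and in 2 of the 3 pairs of high with low. Of 12 arrays, 6 correlated best with their own number. With 3 arrays in a group, these values cannot decide whether the numbers pair the plants. The members' median per plant fell from replicate 1 to replicate 3 at high exposure, at low exposure and in clean air, but not outside. Of 730 alternative values for the named members, 705 kept their side of the threshold, 11 lost the call and 14 gained it. Among the 705 were 20 that changed sign while not called in either fit, and none of the called ones reversed.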
